A study of Homo sapiens with 13 samples.

Results

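The BCL2 family genes described here are 10 regulators of the mitochondrial route to apoptosis, chosen by symbol: the anti-apoptotic BCL2, BCL2L1, BCL2L2 and MCL1, the effectors BAX and BAK1, and the BH3-only BCL2L11, BID, BBC3 and PMAIP1. Of these 10, 9 were in the table of the Silvestrol experiment among 24875 gene symbols, and all 9 passed its minimum level together with 10606 genes in all, members included. BCL2L2 was not analysed here for Silvestrol. The table of the INK128 experiment held all 10 among 13121 genes, of which 7 members and 7102 genes in all passed the minimum.

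BCL2 family proteins decide whether the outer mitochondrial membrane stays intact. Anti-apoptotic members bind and restrain the effectors BAX and BAK1, which otherwise form pores that release cytochrome c, and BH3-only proteins counter that restraint. The anti-apoptotic proteins are much studied in cancer because tumor cells often depend on one or more of them, and MCL1 and PMAIP1 are proteins with a short life that need continued synthesis.

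The study measured ribosome footprints (RFs), the short stretches of mRNA covered by translating ribosomes, and RNA in MDA-MB-231 cells, a triple-negative human breast cancer line. It asked which mRNAs depend on eIF4A, the RNA helicase of the cap-binding complex eIF4F, by blocking it with Silvestrol, and compared this with INK128, an inhibitor of the mTOR kinase. RFs were sequenced from untreated cells (passage 3, 1 library), after 1 h with DMSO or with Silvestrol at 25 nM (passage 3, 1 library each) and after 2 h with either (passages 3 and 4, 2 libraries each). mRNA came from passage 3 at 2 h, with 1 library for DMSO and 1 for Silvestrol. A separate set held RFs and total RNA of cells given DMSO or 200 nM INK128 for 2 h, with 1 library each. All libraries came from this 1 line, so the 2 passages are repeat cultures of it.

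The libraries of the Silvestrol experiment held 2652423 (the passage 4 Silvestrol RF library) to 50315607 counted reads (mRNA of DMSO-treated cells). The depth of the INK128 libraries is unknown because only FPKM values were used. One label field gives 1 h for the passage 3 Silvestrol library titled 2 h, and one calls the DMSO mRNA library untreated, so untreated cells cannot be told apart from DMSO as its source. The line's markers VIM, CD44, EGFR and AXL were well covered in the control RF libraries, whereas ESR1 and the T cell gene CD3E were listed at 0. ERBB2, low by type in a triple-negative line, had 3.27 to 4.05 RPKM in those libraries and 25.8 RPKM of mRNA in DMSO. On the RPKM scale (reads per kilobase of transcript, scaled to the depth of the library) the median gene changed by -0.18 on the log2 scale at 1 h and by -0.17 (passage 3) and -0.15 (passage 4) at 2 h, while scaling by trimmed mean of M-values (TMM), which the tests use, put the 1 h median at 0. Member changes on the RPKM scale are to be read relative to those medians.

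The 5′ untranslated regions (5′ UTRs), where eIF4A acts, differed widely among the members. In GENCODE annotation on GRCh37, the build the files call hg19, the 5′ UTR of BCL2 was 882 nt, longer than in 99.0% of the 10382 genes with one, and that of BCL2L1 was 381 nt, longer than in 88.2%. MCL1 had 80 nt and BAX 54 nt, against a median of 133 nt. The other members lay between 147 nt (BID) and 288 nt (BCL2L11). Minimum free energies of folding were -278.2 kcal/mol for BCL2, -137.5 for BCL2L1, -143.8 for BBC3 and -23.8 for MCL1, with a median of -54.8 over all genes. BCL2 was also poor in G and C, at 49.9% against a median of 67.6%. It had 8 ATG triplets upstream of the start codon, BCL2L1 and BAK1 had 3 each, BBC3 had 2, BCL2L11 and BCL2L2 had 1 each, and MCL1, BAX, BID and PMAIP1 had 0. At least 1 such triplet was present in 38.8% of genes.

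Short windows of these 5′ UTRs are shown because 3 of them come from the anti-apoptotic members whose RF levels went different ways with Silvestrol and the others hold a motif that no other member has. The first 3 give the longest run of purines (A or G, capitals) in BCL2, BCL2L1 and MCL1, with 3 bases on either side. The fourth gives the (CGG)4 motif, CGGCGGCGGCGG (capitals), in BBC3, and the fifth gives the mRNA start of BCL2L2, where C and the 4 pyrimidines after it are in capitals.
BCL2: gccGAGAAGGGGAAAAcat
BCL2L1: gatGGAGGAGGAAGcaa
MCL1: agtAAGGAGtcg
BBC3: ggcgcctggCGGCGGCGGCGGcggcaccag
BCL2L2: CTCTCcctccctccc
All are written 5′ to 3′ on the mRNA strand, the only strand searched, and overlapping CGG repeats count as 1 motif. They lie at chr18:60986727-60986745 (BCL2), chr20:30310643-30310659 (BCL2L1), chr1:150552052-150552063 (MCL1) and chr19:47734399-47734428 (BBC3) on the minus strand, and at chr14:23776042-23776056 (BCL2L2) on the plus strand of GRCh37. The purine runs were 13, 11 and 6 bases long against a median of 7 bases over all genes. Long runs were not limited to these genes, since BCL2L11 had one of 12 bases and BID one of 10. The (CGG)4 motif was in the 5′ UTR of 4.72% of genes and, of the 10 members, in BBC3 alone. A C followed by 4 pyrimidines opened the annotated mRNA of 5.44% of genes and, of the members, of BCL2L2 alone. These matches describe the annotated letters and not a site in use.

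In control cells, MCL1, BCL2L1 and PMAIP1 had the highest RF levels per length of the family. PMAIP1 has a very short coding sequence, and it had fewer RF reads than BAX or BID in each control library. The mean level over the 4 control libraries (untreated, DMSO at 1 h and DMSO at 2 h of both passages) was 379 ± 13.2 RPKM for BCL2L1, 366 ± 50.9 for MCL1, 261 ± 26.9 for PMAIP1, 161 ± 6.54 for BAX and 75.4 ± 4.17 for BID (SD, n = 4). Levels were far lower for BBC3 (10.2 ± 1.64), BCL2L11 (9.27 ± 1.22), BCL2 (4.38 ± 0.579) and BAK1 (1.54 ± 0.553). The ranges of BCL2L1 and MCL1 overlapped, and MCL1 was the higher in each passage 3 control and the lower in passage 4. Those of MCL1 and PMAIP1 and of BBC3 and BCL2L11 also overlapped. Within each of the 4 control libraries, however, MCL1 was above PMAIP1 and BBC3 above BCL2L11. The ranges of all other neighbors were apart. Translation efficiency (TE), the RF RPKM divided by the mRNA RPKM, ordered the members differently. In passage 3 DMSO cells the TE was 6.43 for PMAIP1 and 5.77 for MCL1, above that of 92.7% and 90.6% of genes, against 0.938 for BCL2L1, above 25.4%. BCL2L1 thus had 409 RPKM of mRNA and MCL1 67.9 RPKM for a like RF level.

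**Figure D1:**
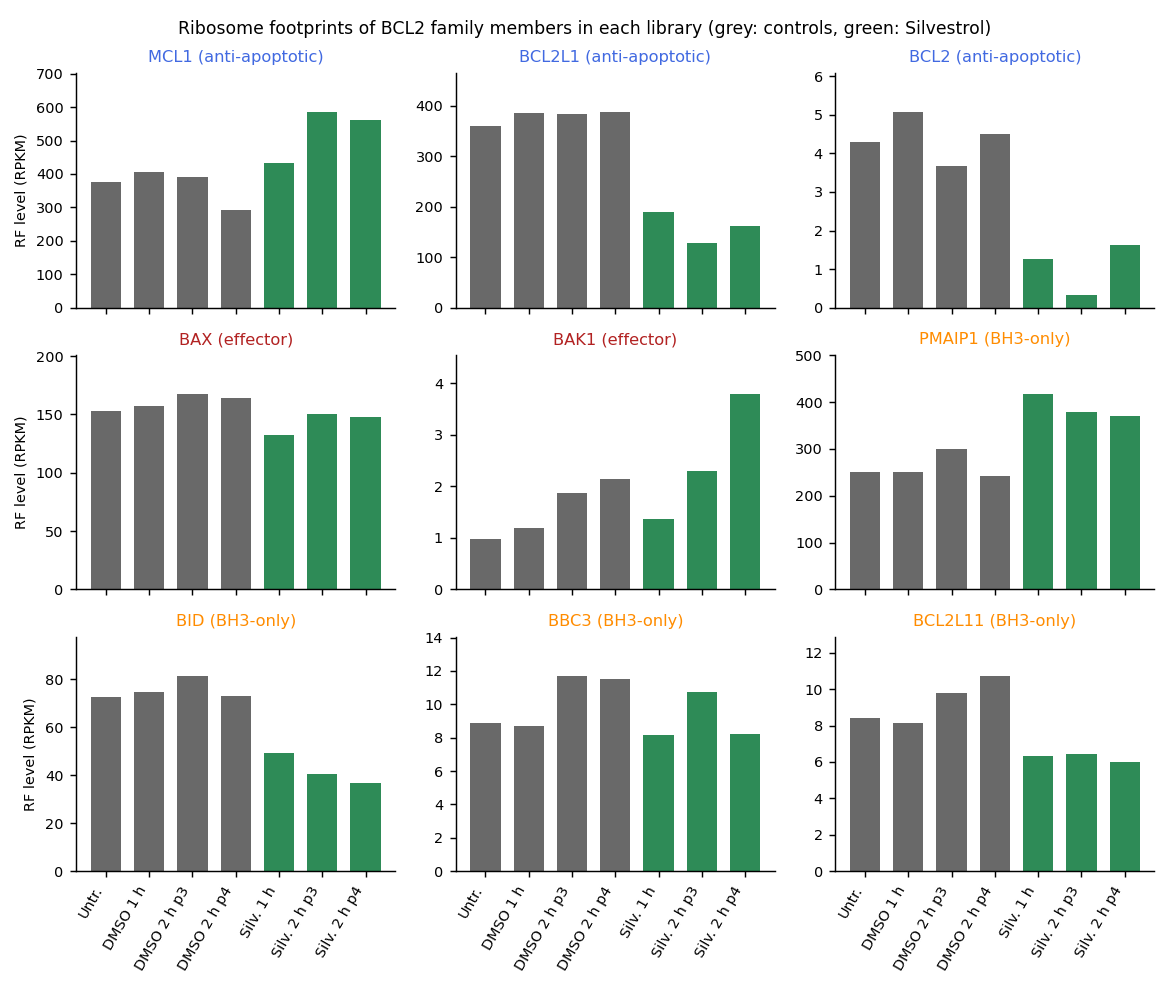
RF level (RPKM, linear axis from 0, a scale of its own in each panel) of the 9 members in the 7 RF libraries, with the 4 controls in grey, the 3 Silvestrol libraries in green, and p3 and p4 for the passages. All Silvestrol bars are below the control bars for BCL2L1 and BCL2, and all are above them for MCL1 and PMAIP1.

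With Silvestrol, RF levels of BCL2L1 and BCL2 were below all controls and those of MCL1 above them, and of these 3 anti-apoptotic genes BCL2L1 alone passed the unblocked edgeR test at 2 h. BCL2L1 encodes BCL-XL, a main survival factor of solid tumors. Its RF level was 359 RPKM in untreated cells, 385 in DMSO at 1 h, and 384 (passage 3) and 387 (passage 4) in DMSO at 2 h, compared with 189 in Silvestrol at 1 h, and 128 (passage 3) and 162 (passage 4) at 2 h. The 3 Silvestrol libraries were all below the 4 controls, and the lowest level came at 2 h in passage 3. RPKM values are shares of a library, so fewer RFs per cell and a change in the cells or in total translation cannot be told apart. BCL2L1 RFs fell by 1.29 on the log2 scale at 2 h (SE 0.14, adjusted p = 0.019, quasi-likelihood test of edgeR, Benjamini-Hochberg adjustment, 2 libraries against 2), and the mRNA level went from 409 to 292 RPKM. The call was lost without the passage 3 Silvestrol library (estimate -1.20) or without the passage 4 one (-1.42). Each of these fits had 1 Silvestrol library, so the spread came from the DMSO libraries.

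BCL2, the founding member of the family, had few RFs. Its level was 4.30, 5.06, 3.66 and 4.49 RPKM in the controls (untreated, DMSO at 1 h, DMSO at 2 h in passages 3 and 4), and 1.25, 0.336 and 1.64 RPKM in Silvestrol at 1 h and at 2 h in passages 3 and 4. These rest on 101, 146, 89 and 26 reads in the controls and on 26, 4 and 4 reads with Silvestrol. The groups did not overlap, although the Silvestrol values at 2 h rest on 4 reads each. A fit with the passage as a block leaves almost no replicate spread, so its small p-values rest largely on spread pooled over genes. The edgeR estimate was -2.43 (SE 0.75) and did not pass (adjusted p = 0.10), whereas with the passage as a block it was -2.54 and passed (adjusted p = 1.8e-05). It was -1.25 without the passage 3 Silvestrol library and -3.39 without the passage 4 one, and neither passed (adjusted p = 0.47 and 0.16 in edgeR). BCL2 mRNA went the other way, from 0.961 to 1.55 RPKM (395 and 327 reads), 0.69 on the log2 scale.

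MCL1, the anti-apoptotic protein that the BH3-only PMAIP1 binds preferentially, was higher in both RFs and mRNA with Silvestrol. Its RF level was 376, 406, 392 and 292 RPKM in the controls, and 434, 584 and 561 RPKM in Silvestrol at 1 h and at 2 h in passages 3 and 4. All Silvestrol libraries were above all controls, the 1 h library only just. The edgeR estimate of 0.86 (SE 0.19) did not pass (adjusted p = 0.054) and passed with the passage as a block (0.87, adjusted p = 1.4e-21). MCL1 mRNA was 67.9 RPKM in DMSO and 140.3 in Silvestrol, 1.05 on the log2 scale. From depth-scaled reads alone it was 1.09 (95% counting interval 1.06 to 1.12), and 0.99 under TMM scaling, just inside 2-fold.

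Neither effector had RFs that passed the test. BAX, which moves from the cytosol to mitochondria to form pores, had 153, 158, 168 and 164 RPKM in the controls and 132, 150.0 and 148 RPKM with Silvestrol. The Silvestrol libraries were all slightly lower on this scale, and the TMM-scaled edgeR estimate at 2 h was -0.03 (SE 0.14, adjusted p = 0.90). BAK1, which sits on mitochondria already, had 0.970, 1.18, 1.88 and 2.14 RPKM in the controls and 1.36, 2.31 and 3.79 RPKM with Silvestrol, on 7 to 17 reads per library. Those groups overlapped (1.10, SE 0.70, adjusted p = 0.35 in edgeR). The estimate was 0.58 with an offset for the counted length and between 0.55 (without the passage 4 Silvestrol library) and 1.71 (without the passage 3 one) with 1 library left out. BAK1 mRNA went from 18.0 to 4.54 RPKM (361 to 88 reads), -1.99 on the log2 scale, while the change was -1.02 in depth-scaled reads and -1.12 under TMM scaling. The length over which its reads were counted, taken as reads over RPKM, also went from 0.398 to 0.782 kb in mRNA and lay between 0.271 and 0.696 kb in RFs, against an annotated coding length of 633 bases and a transcript of 2170 bases. BAK1 has a processed pseudogene of similar sequence, so its values are uncertain.

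Of the BH3-only genes, PMAIP1 had more RFs with Silvestrol and BID fewer. PMAIP1 encodes NOXA. Its RF level was 251, 249.9, 300.5 and 241 RPKM in the controls and 417, 379 and 369.8 RPKM with Silvestrol at 1 h and at 2 h in passages 3 and 4. All Silvestrol libraries were above all controls, with the highest level at 1 h. At 2 h the edgeR estimate of 0.58 (SE 0.20) did not pass (adjusted p = 0.13) and passed with the block (0.57, adjusted p = 0.00012). PMAIP1 mRNA was 46.8 RPKM in DMSO and 79.0 in Silvestrol, 0.76 on the log2 scale.

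BID, which links death receptors to mitochondria once caspase-8 has cut it, had 72.5, 74.6, 81.5 and 73.0 RPKM in the controls and 49.4, 40.7 and 36.9 RPKM with Silvestrol. The groups did not overlap, and both 2 h libraries were below the 1 h library. The edgeR estimate of -0.86 (SE 0.19) did not pass (adjusted p = 0.054) and passed with the block (-0.87, adjusted p = 7.5e-09). BID mRNA went from 31.3 to 19.3 RPKM, -0.70 on the log2 scale.

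The remaining pair of BH3-only genes had few reads. BCL2L11, which encodes BIM, had 8.40, 8.15, 9.81 and 10.7 RPKM in the controls and 6.35, 6.44 and 5.97 RPKM with Silvestrol, with no overlap. Its estimate of -0.58 (SE 0.30) passed neither edgeR fit (adjusted p = 0.25, and 0.093 with the block), and its mRNA was 4.14 and 4.996 RPKM. BBC3, which encodes the p53 target PUMA, had 8.90, 8.67, 11.7 and 11.5 RPKM in the controls and 8.19, 10.7 and 8.21 RPKM with Silvestrol. Its groups overlapped (-0.14, SE 0.29, adjusted p = 0.79 in edgeR), and its mRNA was 11.02 and 14.0 RPKM.

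Counted over the family at 2 h, 1 of 9 members (BCL2L1) had lower RFs and 0 of 9 higher RFs in the edgeR test, where 7.33% of all genes were called lower and 1.93% higher. At an unadjusted p under 0.05, 3 were lower (BCL2, BCL2L1 and BID) and 2 higher (MCL1 and PMAIP1), against 18.5% and 12.2% of all genes. DESeq2 called BCL2L1 and BID lower and MCL1 higher, with backgrounds of 9.44% and 5.20%. In the fit blocked on passage, 3 of 9 were lower (BCL2, BCL2L1 and BID, background 28.0%) and 2 of 9 higher (MCL1 and PMAIP1, background 24.6%). The same 5 members passed with all 7 RF libraries fitted by treatment alone, where 20.1% of genes were lower and 13.0% higher. That fit pooled 1 h with 2 h and untreated cells with DMSO. It holds the same 2 h libraries and is no separate test of 2 h. Levels did not overlap between the 4 controls and 3 Silvestrol libraries in 5 members with lower values (BCL2, BCL2L1, BAX, BCL2L11 and BID) and in 2 with higher values (MCL1 and PMAIP1), against 32.7% and 10.2% of all genes.

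At 1 h, with 1 library for each treatment and hence no test, the order of the members was already much that of 2 h. The log2 change in RF RPKM was -2.01 for BCL2, -1.03 for BCL2L1, -0.59 for BID and 0.74 for PMAIP1. For MCL1 it was 0.10, against 0.58 (passage 3) and 0.94 (passage 4) at 2 h. Thus 2 of 9 members (BCL2 and BCL2L1) were lower by 2-fold or more, against 7.98% of genes, and 0 were higher, against 0.378%. BCL2L1 was at -0.86 under TMM scaling and at -0.92 against untreated cells, inside 2-fold. From depth-scaled reads alone the changes were -1.89 for BCL2 (95% counting interval -2.55 to -1.28), -0.91 for BCL2L1 (-0.96 to -0.85) and 0.85 for PMAIP1 (0.75 to 0.95). These intervals cover counting error only.

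**Figure D2:**
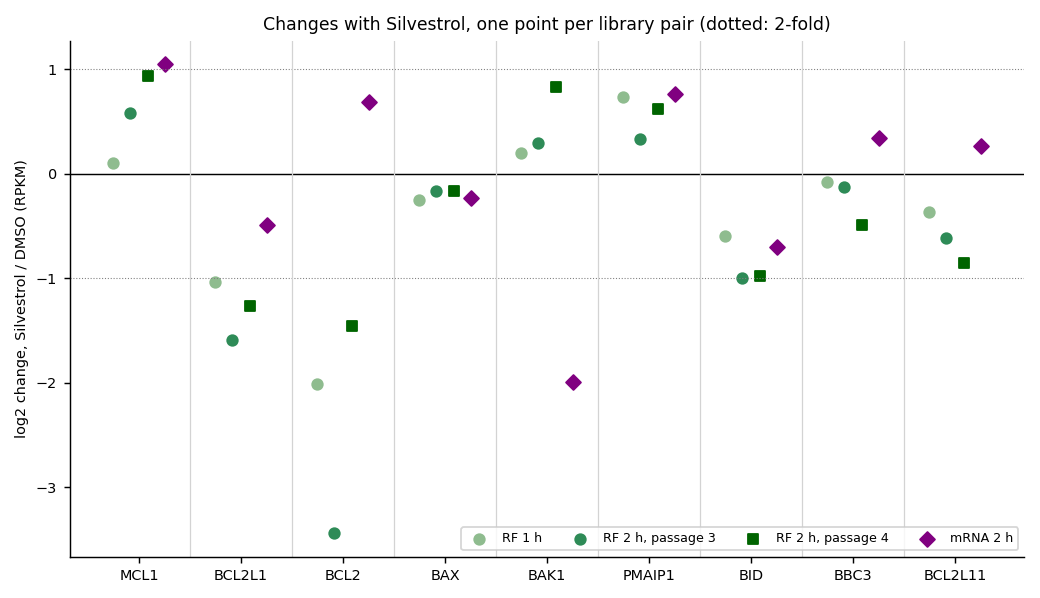
Log2 change of each member with Silvestrol (RPKM over that of the matching DMSO library) for RFs at 1 h, RFs at 2 h in passages 3 and 4, and mRNA at 2 h, each point 1 pair of libraries, with dotted lines at 2-fold. MCL1 and PMAIP1 have positive points throughout, BCL2L1, BAX and BID negative ones throughout, and BCL2, BAK1, BCL2L11 and BBC3 have RF and mRNA points on opposite sides of 0. The RF points of BAX, and those of BBC3 except in passage 4, lie close to the all-gene medians.

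Silvestrol also went with unequal mRNA levels at 2 h, in 1 library per treatment. MCL1 was the 1 member of 9 higher by 2-fold or more (background 4.70%) and BAK1 the 1 lower (background 1.93%). Setting RFs against mRNA, BCL2 had the largest drop in TE of the members. Its TE changed by -4.13 on the log2 scale in passage 3 and -2.15 in passage 4, both over the same mRNA pair. BCL2L1 had TE changes of -1.10 and -0.77, and the pro-apoptotic BCL2L11 and BBC3 had -0.88 and -1.12, and -0.47 and -0.83. For MCL1 they were -0.47 and -0.11, for PMAIP1 -0.42 and -0.14, and for BID -0.30 and -0.29, beside all-gene medians of -0.28 and -0.25. The RF and mRNA changes had the same sign in MCL1, PMAIP1, BID and BCL2L1. The BAX RF change, -0.16 in both passages, lay at the all-gene medians of -0.17 and -0.15, so its sign is not read.

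The TE z-score sets each change against the mean and SD of all genes. BCL2 was at -3.80 in passage 3 and -1.93 in passage 4, the 1 member of 9 below -1.5 (background 6.28% in passage 3 and 6.73% in passage 4). Each of these BCL2 values rests on 4 Silvestrol RF reads, over the same mRNA pair. BAK1 was at 2.58 and 3.25, the 1 member above 1.5 (background 4.40% and 4.71%), with the low reads and shifting counted length given above, which also enter its mRNA change. The others lay between -0.79 (BCL2L1) and 0.37 (BAX) in passage 3, and between -0.85 (BCL2L11) and 0.38 (BAX) in passage 4, where BCL2L1 was at -0.49 and BBC3 at -0.56. In the edgeR interaction test of TE, 0 of 10606 genes passed (2558 had an unadjusted p under 0.05, and DESeq2 called 525 lower and 364 higher), with adjusted p = 0.15 for BCL2 (-3.04, SE 0.95), 0.18 for BCL2L1 (-0.70, SE 0.25) and 0.36 for BCL2L11 (-0.72, SE 0.43). The BCL2 estimate was -1.84 without the passage 3 Silvestrol library and -3.93 without the passage 4 one (adjusted p = 0.44 and 0.30 in edgeR), and it passed without the passage 3 DMSO library (-3.25, adjusted p = 0.035). Blocking on the passage, edgeR called BCL2 (-3.12, adjusted p = 0.0025) and BCL2L1 (-0.71, adjusted p = 0.0062) lower and BAK1 (2.25, adjusted p = 0.013) higher, with 21.9% of genes called in each direction. That test has 1 mRNA library per treatment. The estimates for MCL1, PMAIP1 and BID were -0.04 each, with SEs of 0.35, 0.32 and 0.33.

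**Figure D3:**
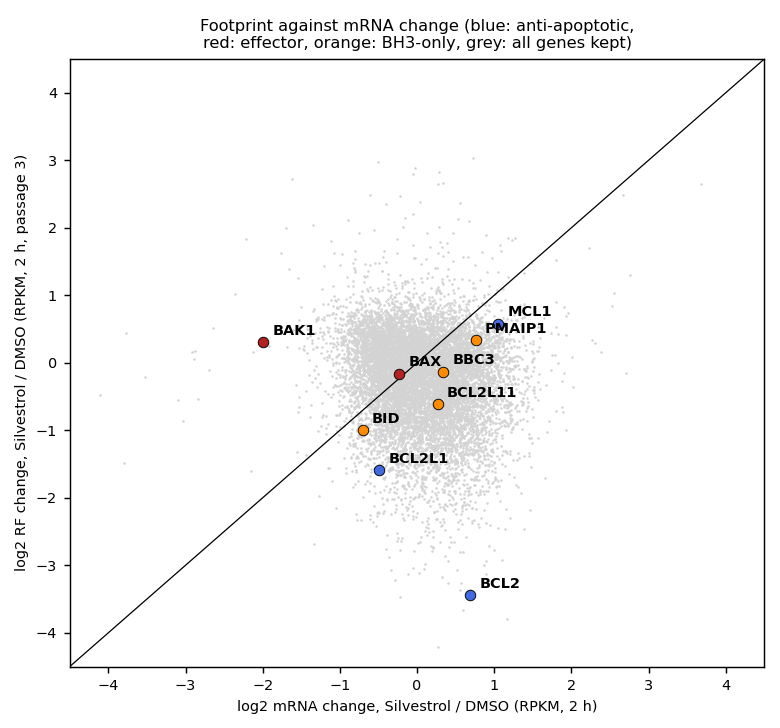
Log2 RF change in passage 3 against log2 mRNA change at 2 h, Silvestrol over DMSO, for all 10606 genes (grey) and the 9 members (colored by class), where the line marks equal change and 20 genes lie outside the axes. Vertical distances from the line are TE changes, -4.13 for BCL2, -1.10 for BCL2L1, between -0.47 and -0.30 for MCL1, PMAIP1 and BID, and 2.29 for BAK1.

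The anti-apoptotic and pro-apoptotic classes differed in their medians, but each held members on both sides. The median log2 RF change at 2 h was -1.59 for the 3 anti-apoptotic members and -0.14 for the 6 pro-apoptotic members in passage 3, and -1.26 and -0.32 in passage 4, beside all-gene medians of -0.17 and -0.15. The difference of the class medians was -1.44 in passage 3 and -0.93 in passage 4. With 3 and 6 genes this is a description, and the anti-apoptotic median is in both passages the value of BCL2L1 itself. MCL1, at 0.58 and 0.94, lay on the other side of the family from BCL2 and BCL2L1.

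Summed levels give the same RF values as shares of each class. MCL1 made up 42.8% to 51.0% of the anti-apoptotic RF RPKM in the 4 controls, and 69.5%, 82.0% and 77.4% in Silvestrol at 1 h and at 2 h in passages 3 and 4. The share of BCL2L1 was 48.4% to 56.6% in the controls, and 30.3%, 18.0% and 22.4% with Silvestrol. PMAIP1 made up 48.0% to 52.5% of the pro-apoptotic RF RPKM in the controls, and 67.9%, 64.3% and 64.6% with Silvestrol. In none of these shares did the groups overlap, but the shares restate the levels given above. MCL1 and BCL2L1 made up nearly all of the anti-apoptotic sum, so their shares mirror each other. The sum of the anti-apoptotic class was 684 to 796 RPKM in the controls and 624, 713 and 724 with Silvestrol, and its ratio to the pro-apoptotic sum was 1.36 to 1.59 and then 1.02, 1.21 and 1.27. In mRNA that ratio was 2.26 in DMSO and 2.09 in Silvestrol, and the share of MCL1 went from 14.2% to 32.3%.

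**Figure D4:**
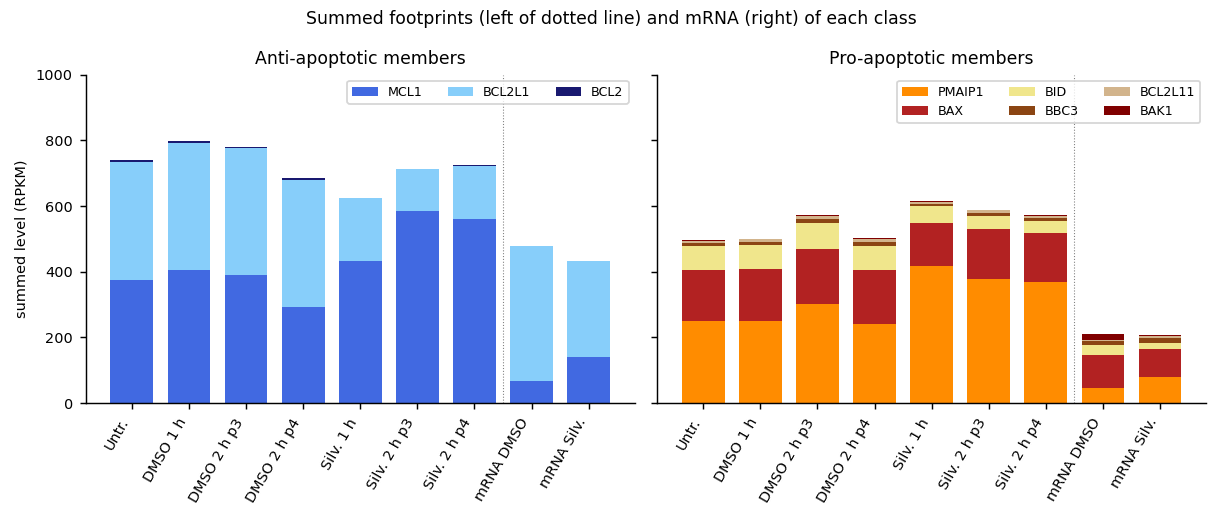
Summed RPKM of the anti-apoptotic (left) and pro-apoptotic (right) members in the 7 RF libraries and, beyond the dotted line, the 2 mRNA libraries, with bars from 0 stacked by gene. MCL1 takes a larger part of the left bars with Silvestrol, up to 82.0%, and PMAIP1 a larger part of the right bars, up to 67.9%.

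With INK128, RF changes of the members ran from -0.35 (BAK1) to 1.26 (BBC3, below the minimum level) on the log2 scale, with MCL1 and BCL2L1 next to 0. The experiment had 1 library for each condition, so no difference has a replicate check, and no counts were used. None of the 7 members above the minimum level differed in RF FPKM (fragments per kilobase, scaled to depth) by 2-fold or more, against 1.96% of genes lower and 1.69% higher. MCL1 was at 65.7 FPKM in DMSO and 62.6 in INK128, and BCL2L1 at 67.6 and 66.5, changes of -0.07 and -0.02 on the log2 scale. BAX was at 74.8 and 88.8 FPKM, BAK1 at 19.3 and 15.1 (-0.35, above 7.5% of genes), BID at 18.7 and 18.8, and PMAIP1 at 30.8 and 39.7 (0.37, above 92.6% of genes). BCL2L11 had the largest change of the 7, from 16.2 to 27.9 FPKM (0.78), above that of 97.3% of genes.

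Of the 3 members below the minimum, BBC3 went from 3.64 to 8.70 FPKM in RFs (1.26), BCL2 from 1.23 to 1.32 and BCL2L2 from 0.318 to 0.337. BCL2L2 shares its locus with a readthrough transcript into PABPN1, so its value is uncertain. Total RNA FPKM of the median gene changed by -1.17 on the log2 scale, and members are given relative to it. They lay between -0.29 (BAX) and 0.68 (PMAIP1) among the 7, none past 2-fold (background 0.310% lower and 5.11% higher). TE z-scores lay between -0.52 (PMAIP1) and 1.26 (BCL2L11), with 0 of 7 past 1.5 in either direction (background 5.58% below and 1.75% above). With a z-score from the median and MAD, BAX was at 1.78 and BCL2L11 at 1.98, and with a pseudocount of 1 FPKM BCL2L1, BAX and BCL2L11 were at 1.57, 1.88 and 2.40. The ratio of the anti-apoptotic to the pro-apoptotic RF sum was 0.823 in DMSO and 0.656 in INK128.

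**Figure D5:**
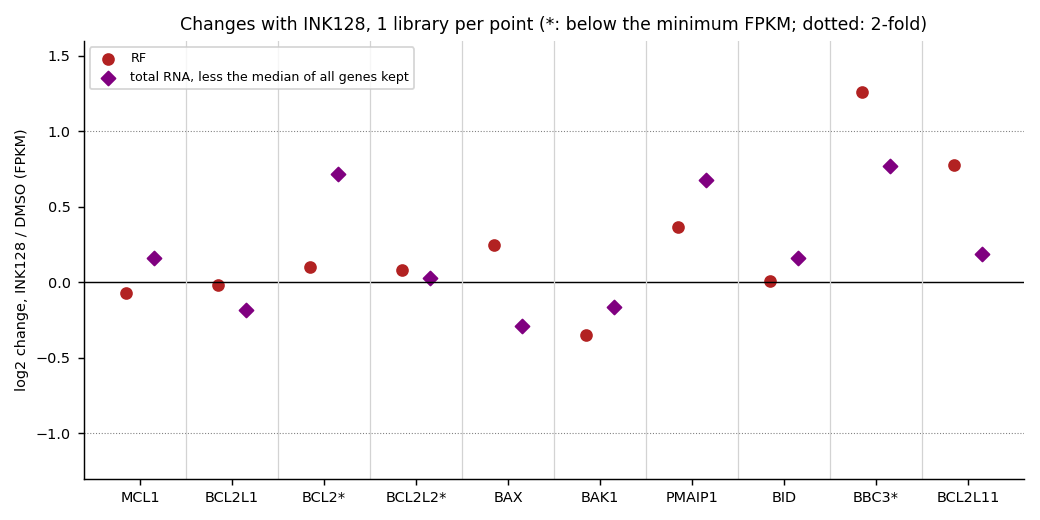
Log2 change of the 10 members with INK128 over DMSO at 2 h in RFs (circles) and in total RNA less the all-gene median (diamonds), from FPKM of 1 library each, with dotted lines at 2-fold and asterisks on the 3 members below the minimum level. BBC3 (1.26, below the minimum) and BCL2L11 (0.78) have the highest RF changes, and MCL1 and BCL2L1 lie next to 0.

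A wider list of 40 apoptosis genes, of which 34 passed the minimum level, gives the surroundings of the family in the 2 h Silvestrol RF test. In edgeR 6 of 34 were lower and 1 higher, and with the passage as a block 11 were lower and 8 higher. Over all genes the shares were 7.33% and 1.93%, and 28.0% and 24.6% with the block, so the blocked counts were near the background. The median estimate was 0.03. Among 14 genes of the apoptosome, the caspases and mitochondrial factors, 2 were lower and 0 higher in edgeR. With the block, 4 were lower and 2 higher. APAF1, the scaffold of the apoptosome, fell by 2.00 (adjusted p = 0.022, edgeR) and had a TE z-score of -2.23 in passage 3. CASP8, the initiator caspase of death receptors that cuts BID, fell by 0.77 (adjusted p = 0.049, edgeR). VDAC1 had a TE z-score of 7.90, which rests on 5 or 6 RF reads per library and an mRNA level of 64.8 RPKM in DMSO and 0.750 in Silvestrol, and its processed pseudogenes make it uncertain.

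Of the 5 inhibitors of apoptosis, 1 was lower and 1 higher in edgeR, and 2 were lower and 3 higher with the block. BIRC2, a ubiquitin ligase that restrains cell death, fell by 1.37 (adjusted p = 0.033, edgeR). Its mRNA change was 0.66 and its TE z-score in passage 3 was -2.23. BIRC6, a very large ubiquitin-conjugating member, rose by 0.64 (adjusted p = 0.039, edgeR). With the block only, BIRC3 (0.71, adjusted p = 0.0014), BIRC5 (0.46, adjusted p = 2e-05) and XIAP (-0.46, adjusted p = 0.014) passed. BIRC5 and XIAP are named after their values were seen. Of 6 genes of the death receptor arm, CFLAR, the decoy that blocks CASP8, fell by 0.99 (adjusted p = 0.047, edgeR). FAS (0.86 with the block) and TNFRSF10A (0.63 with the block), both death receptors, passed with the block only (adjusted p = 0.044 and 6.6e-05). So did a further death receptor, TNFRSF10B, in the other direction (-0.46 with the block, adjusted p = 0.0023), which is named after its values were seen. Of 6 other family genes above the minimum 0 passed in edgeR. The BH3-only BMF passed with the block (1.21, adjusted p = 0.047) on 5 to 26 reads per library.

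All 3 genes listed for MCL1 turnover had low estimates. HUWE1, a ubiquitin ligase that marks MCL1 for degradation, fell by 1.13 (adjusted p = 0.023, edgeR), and USP9X, which removes ubiquitin from MCL1, fell by 1.56 (adjusted p = 0.025). FBXW7, the substrate receptor of another MCL1 ligase, had -1.51 (adjusted p = 0.13, edgeR) and -1.62 with the block (adjusted p = 0.00035). These genes thus include factors that act on the MCL1 protein in opposite directions. HUWE1, USP9X and FBXW7 had mRNA changes of 0.29, 0.13 and 1.15 and TE z-scores of -1.29, -1.86 and -2.98.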

How the data were processed

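RFs and RNA of MDA-MB-231 cells were taken from the tables the authors deposited. For Silvestrol, the authors aligned reads with Bowtie (up to 2 mismatches and 16 alignments) to hg19 and canonical transcripts and deposited read counts and RPKM, the latter without positions that have non-unique reads. For INK128 the authors deposited FPKM; the program behind it is not given in the sources used here. The deposited TE, log2 change and z-score columns are the authors' own comparisons, and pooled averages were also deposited; none was used. For INK128, dividing RF by total RNA FPKM does not return the TE columns of the authors, so TE changes and z-scores given here are those of the FPKM ratio. The number of per-sample columns left out was 0. Repeated lines were dropped (38897 lines, 25758 distinct), and for 546 symbols with several entries the one with the highest mean RF RPKM was taken.

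Genes were kept at a mean of 1 RPKM or more in RFs and 0.3 RPKM or more in mRNA (the same limits in FPKM for INK128). In the Silvestrol experiment a gene also needed RPKM above 0 in each passage 3 RF and mRNA library at 2 h. Genes without reads there after Silvestrol are therefore not among the 10606. The RF test at 2 h was the quasi-likelihood test of edgeR 4.0.16 (R 4.3.3, TMM scaling, Benjamini-Hochberg threshold 0.05) on counts, and TE as the interaction of assay and treatment. DESeq2 1.42.0 was an alternative. Log2 ratios have no pseudocount. Single-pair intervals are exact binomial, at 95%. Tested on simulated counts of 10606 genes, of which 200 differed by 2 in log2, the RF test called 176 of these (and 11 others) and the TE test 87 (and 7 others). Passages 3 and 4 are cultures that the labels give to DMSO and Silvestrol alike, and their deviations correlated between the treatments (r = 0.755 over 10606 genes). The samples are therefore paired by passage, and blocked values are given where they change a call. Blocked fits leave almost no replicate spread, so their small adjusted p-values rest largely on spread pooled over genes and do not measure replicate agreement.

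The 5′ UTRs are those of GENCODE version 44 on GRCh37 (97.9% of kept genes matched), folded with RNAfold 2.7.2. Python 3.11.15 and pandas 2.3.3 were used. All members are named, and of the wider list those called in the RF test, its blocked fit or the TE z-score, up to 3 a group by size. The members and lists were chosen with earlier results of these data known.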

Additional observations from a re-analysis of the deposited data

How the results depend on the processing

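Counts of called members and genes moved with several settings. For RFs at 2 h, 1 member and 777 genes were lower and 0 members and 205 genes higher. The passage as a block gave 3 members and 2968 genes lower and 2 members and 2614 genes higher. All 7 RF libraries, with times and untreated cells pooled, gave 3 members and 2134 genes lower and 2 members and 1383 genes higher. DESeq2 gave 2 members lower, 1 member higher and 552 genes higher, and an offset for counted length or a minimum of 5 RPKM gave 2 members lower. Leaving out 1 library each gave 0 to 840 genes and 0 to 2 members lower, and 0 to 219 genes and 0 to 1 members higher. No gene in either direction was called without either Silvestrol library, when 1603 (passage 3 left out) and 1907 (passage 4 left out) genes had an unadjusted p under 0.05 in edgeR; BCL2L1 was then at -1.20 and -1.42. MCL1 passed without the passage 3 DMSO library (1.12), and BID without the passage 4 one (-0.97). For TE the block gave 2 members and 2320 genes lower and 1 member and 2327 genes higher, DESeq2 525 and 364 genes, and no minimum RPKM 2 genes lower. Leaving out 1 library each gave 0 to 667 genes and 0 to 1 members lower and 0 to 402 genes higher. At a minimum of 5 RPKM 0 members passed either z-score limit, since BCL2 and BAK1 drop out, and 301 genes were above 1.5.

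At 1 h, TMM scaling gave 1 member and 480 genes lower and 70 genes higher, and the untreated control gave 1 member lower and 75 genes higher. In mRNA, TMM scaling left 0 members higher, and a pseudocount of 0.5 gave 328 genes higher. With INK128, pseudocounts of 0.1 and 1 FPKM put 1 and 3 members above a z-score of 1.5, median and MAD put 2 there, and no minimum added 1 member with higher RFs (BBC3). The class median difference was -0.93 in passage 4. Estimates near 0 changed sign: BAX RFs were 0.01 (median-ratio scaling in edgeR, and DESeq2) and -0.12 to 0.02 with 1 library left out, and BBC3 RFs -0.45 to 0.05. TE was 0.02 under DESeq2 for MCL1, BID and PMAIP1, and with 1 library left out -0.30 to 0.20, -0.22 to 0.10 and -0.25 to 0.15. The cause was not tested. Depth limits BCL2, BAK1 and, in passage 4, BBC3 and BCL2L11, which have 22 reads or fewer in the passage 4 Silvestrol library. DESeq2 gave no adjusted p for BCL2 and BAK1, nor for BCL2L11 in TE.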

Other observations

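Of the genes with at least 100 reads in each RF library, the 3 whose levels over the 9 Silvestrol-experiment libraries were most like those of MCL1, by distance of centered log2 RPKM, were CBLL1 (0.26), FAM175B (0.35) and RNF169 (0.35), against a median distance of 1.96 over 4974 genes. For BAX they were MTG1 (0.21), SCAND1 (0.22) and NRBP1 (0.24), against a median of 1.41. The points share libraries and depth, so these are descriptions.

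BAK1 ranked differently in the 2 experiments. Its RF level in DMSO at 2 h was 1.88 and 2.14 RPKM in the Silvestrol table, the lowest of the 9 members, and 19.3 FPKM in the INK128 table, next to BID at 18.7 FPKM. The 2 tables were made separately, and the reason for the difference was not tested.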
